A study of Mus musculus with 9 samples.

Results

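The genes described here are the subunits of the transcription factor NF-kB and proteins that its activity induces and that in turn restrain or redirect it. Nfkb1, Nfkb2, Rela and Relb encode subunits, and Nfkbia, Nfkbiz, Bcl3, Tnfaip3, Zc3h12a and Birc3 encode regulators. They were taken by gene symbol from a table of 25526 genes measured in mouse lung, and all 10 were found. The samples were lungs of 9 mice in 3 groups of 3: mice that received PepNzymeSOD-CAT (the nanozyme group), mice with a pulmonary fibrosis model, and normal mice. Nanozymes are materials made to act like enzymes, here like superoxide dismutase and catalase by its name, and the series is on an inhalable polypeptide nanozyme in lung fibrosis. The labels used here state no strain, age, inducer of fibrosis, dose or time of sampling, and do not say when the nanozyme was given relative to any injury. The sample titles of the nanozyme group name the nanozyme alone, and do not state whether these mice also had the fibrosis model. Library numbers in the labels run separately for nanozyme and for the other 6 libraries, where the model and normal groups are numbered in consecutive blocks. A processing batch therefore cannot be told apart from the group in any comparison.

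NF-kB proteins work as dimers that wait in the cytoplasm, held there by inhibitors of the IkB family. In the canonical pathway, signals from tumour necrosis factor, interleukin-1 or Toll-like receptors lead to destruction of the inhibitor, and dimers of the Rela and Nfkb1 products enter the nucleus. In the alternative pathway the Nfkb2 precursor is processed and pairs with the Relb product. Several targets of the factor are its own inhibitors, so that their messenger RNA is widely read as a trace of recent pathway activity, and in injured lung the pathway is active in macrophages, neutrophils, epithelium and endothelium alike. Messenger RNA does not show whether the proteins were in the nucleus.

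Values are FPKM, which correct read numbers for transcript length and library size, so that levels can be compared between genes within a library. Between libraries they still depend on the scaling, as the column sums ran from 443746 to 519772. All 10 genes were at 1 FPKM or more in all 9 libraries. Changes are log2 fold changes on the scale of log2(FPKM + 1), with their standard error, from limma fitted across 14540 tested genes, and p-values are Benjamini-Hochberg adjusted over all of these. Means are given ± SD over the 3 mice of a group (n = 3). The depth of the libraries is unknown, and the precision of a value rests on the spread between mice alone. An exact permutation test on 1 gene could reach no p under 0.10 with groups of 3, and none was run.

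Promoter windows of these genes were read from RefSeq to show which hold the binding motif of the factor. Windows of 250 bases before to 50 bases after a start site, on GRCm38.p6, were held for 7 of the 10 genes, in 10 windows because Nfkb2 and Tnfaip3 have several start sites. Nfkb1, Relb and Nfkbiz had no entry. The windows were searched on both strands for the kappaB consensus, the 10-base binding motif of the factor. It was found in 6 of the 10 windows, which belong to 4 of the 7 genes (Nfkbia, Tnfaip3, Nfkb2 and Bcl3), and in 4.51% of the 32851 promoter windows of the whole table. The other Nfkb2 windows overlap each other and share 1 match, at base 11 from one start site and -225 from the other, which is counted in both windows. The second Tnfaip3 window had 0 matches and is not printed. A match of letters is a description and does not show binding. The windows of Rela, Birc3 and Zc3h12a had 0 matches, and of these genes Birc3 and Zc3h12a were called higher in model lung. Below are the windows of 3 genes with matches and of Rela. Each is written 5′ to 3′ on the strand of the gene with the matches in capitals.
Nfkbia, chr12:55492598-55492897, minus strand: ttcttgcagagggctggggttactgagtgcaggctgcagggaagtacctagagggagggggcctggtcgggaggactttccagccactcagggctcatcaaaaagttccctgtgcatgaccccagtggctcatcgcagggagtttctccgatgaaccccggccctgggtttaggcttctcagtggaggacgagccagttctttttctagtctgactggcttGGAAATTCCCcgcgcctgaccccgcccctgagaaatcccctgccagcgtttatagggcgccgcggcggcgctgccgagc
Tnfaip3, chr10:19015361-19015660, minus strand: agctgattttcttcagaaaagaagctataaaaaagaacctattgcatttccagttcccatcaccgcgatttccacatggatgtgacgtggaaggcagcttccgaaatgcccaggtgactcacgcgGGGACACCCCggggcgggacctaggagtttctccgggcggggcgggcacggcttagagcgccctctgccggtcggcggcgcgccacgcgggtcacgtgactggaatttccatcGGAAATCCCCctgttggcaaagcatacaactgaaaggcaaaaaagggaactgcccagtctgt
Nfkb2, chr19:46304487-46304786, plus strand: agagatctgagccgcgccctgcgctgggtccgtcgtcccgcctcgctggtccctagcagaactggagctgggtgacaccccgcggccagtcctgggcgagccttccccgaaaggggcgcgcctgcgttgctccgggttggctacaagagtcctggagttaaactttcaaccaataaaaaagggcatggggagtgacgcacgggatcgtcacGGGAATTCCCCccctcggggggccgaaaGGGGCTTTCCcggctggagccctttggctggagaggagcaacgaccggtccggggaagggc
Rela, chr19:5637291-5637590, plus strand: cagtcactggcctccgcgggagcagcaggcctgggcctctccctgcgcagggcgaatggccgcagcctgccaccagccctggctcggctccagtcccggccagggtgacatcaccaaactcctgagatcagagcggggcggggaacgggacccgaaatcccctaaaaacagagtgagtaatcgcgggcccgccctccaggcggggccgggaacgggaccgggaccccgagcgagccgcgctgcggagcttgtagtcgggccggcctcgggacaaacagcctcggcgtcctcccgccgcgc
In the Nfkbia window the match began at base -29 from the start site. In the Tnfaip3 window matches began at -125 and -12. In the Nfkb2 window the matches at -39 and -38 overlap, and the first of them reads the same on both strands, while a separate match lay at -11.

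In the GENCODE vM21 annotation of GRCm38 all 10 genes are protein-coding. Nfkbia lies on the minus strand of chromosome 12 from 55489410 to 55492647, Tnfaip3 on the minus strand of chromosome 10 from 19000910 to 19015657, and Zc3h12a on the minus strand of chromosome 4 from 125118423 to 125127840. Nfkb2, on the plus strand of chromosome 19 from 46304320 to 46312385, overlaps the opposite-strand genes Psd and AC114539.1. Bcl3, on the minus strand of chromosome 7 from 19808462 to 19822770, overlaps the opposite-strand genes Gm16175 and Gm16174. The strand setting of the counting is not given in the sources used here, so reads of these overlaps cannot be told apart and the values of Nfkb2 and Bcl3 carry that limit. Nfkb1 overlaps Gm43430 on its own strand, where no strand setting would separate the reads, so its values carry a like limit. Birc3, on the minus strand of chromosome 9 from 7848699 to 7873186, has a close paralog in Birc2, whose values are given beside it.

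One nanozyme library stood apart from the others of its group. On the first principal component of all tested genes, which held 62.8% of the variance, nanozyme replicate 2 lay at 43.3 and nanozyme replicates 1 and 3 at -14.4 and -9.68, model libraries between 39.5 and 61.2, and normal libraries between -63.5 and -54.8. The labels used here give no reason for its position, and the reason was not tested. Nanozyme results on the 10 genes are given with and without that library. It was singled out from its values, so the p-values without it describe the other two mice only. Markers of alveolar type 2 cells, a cell type of the lung, were present in every library. The summed FPKM of 6 alveolar type 2 markers ran from 17230 to 29930 in nanozyme, from 8502 to 12430 in model and from 24040 to 30460 in normal lung.

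The first comparison asked how the NF-kB genes stood in fibrosis model lung. The regulators and the alternative-pathway subunits rose together, between 3.57-fold and 11.8-fold in mean FPKM, while the canonical subunit gene Nfkb1 rose 1.70-fold and Rela did not pass the test. Zc3h12a and Tnfaip3, which encode brakes on inflammatory signalling, had the largest changes among the 10 genes, at 3.18 ± 0.50 and 3.16 ± 0.60 on the log2 scale. Of the 10 genes 9 were higher in model than in normal lung by limma and 0 lower, against a background of 17.4% of all tested genes higher and 22.7% lower. Rela was the gene that did not pass. The median change of the 10 genes was 1.82, against -0.12 over all tested genes. At all 10 genes every model library was above every normal library, which held for 23.5% of tested genes.

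Among the canonical subunits, Rela encodes the subunit that carries the strong activation domain. It had 54.1, 47.1 and 53.2 FPKM in model replicates 1 to 3, against 37.1, 41.3 and 39.9 FPKM in normal replicates 1 to 3. The groups did not overlap, with the lowest model library a little above the highest normal one, and the change was 0.37 ± 0.14 (95% interval 0.06 to 0.69, adjusted p = 0.0619). It passed under 5 of 20 other settings, with adjusted p-values from 0.00508 to 0.188 over all 20, and without nanozyme replicate 2, which enters the shared estimate of the spread, adjusted p was 0.0150. Nfkb1 encodes the precursor of the usual partner of the Rela protein. It had 60.4, 53.6 and 68.0 FPKM in model lung, against 37.2, 31.6 and 38.0 FPKM in normal lung. It rose by 0.75 ± 0.17 (adjusted p = 0.0103), a mean 1.70-fold higher, with all model libraries above all normal ones.

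The subunits of the alternative pathway had larger changes than either. Nfkb2, whose precursor is trimmed to the active subunit, had 56.0, 68.3 and 71.0 FPKM in model lung, against 14.7, 14.8 and 14.6 FPKM in normal lung. The normal libraries were close together, with an SD of 0.0920 FPKM, and Nfkb2 rose by 2.07 ± 0.34 (adjusted p = 0.00297). Relb, its partner, had 34.5, 36.5 and 34.1 FPKM in model lung, against 9.44, 9.40 and 9.02 FPKM in normal lung, and rose by 1.81 ± 0.31 (adjusted p = 0.00346). Both groups were tight for Relb, with a coefficient of variation of 3.70% in model and 2.55% in normal lung.

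The balance between these genes can also be read within each library. The FPKM ratio of Relb to Rela was 0.638, 0.775 and 0.642 in model lung, against 0.254, 0.228 and 0.226 in normal lung. The ratio of Nfkb2 to Nfkb1 was 0.927, 1.28 and 1.04 in model lung, against 0.395, 0.468 and 0.384 in normal lung, so that Nfkb2 messenger RNA was near the level of Nfkb1 in model lung and below it in every normal lung. Nfkbia to Rela stood at 4.32, 6.63 and 4.60 in model lung, against 1.56, 1.49 and 1.45 in normal lung. A ratio within a library does not depend on the scaling between libraries, and for these 3 ratios no model library overlapped a normal one.

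**Figure D1:**
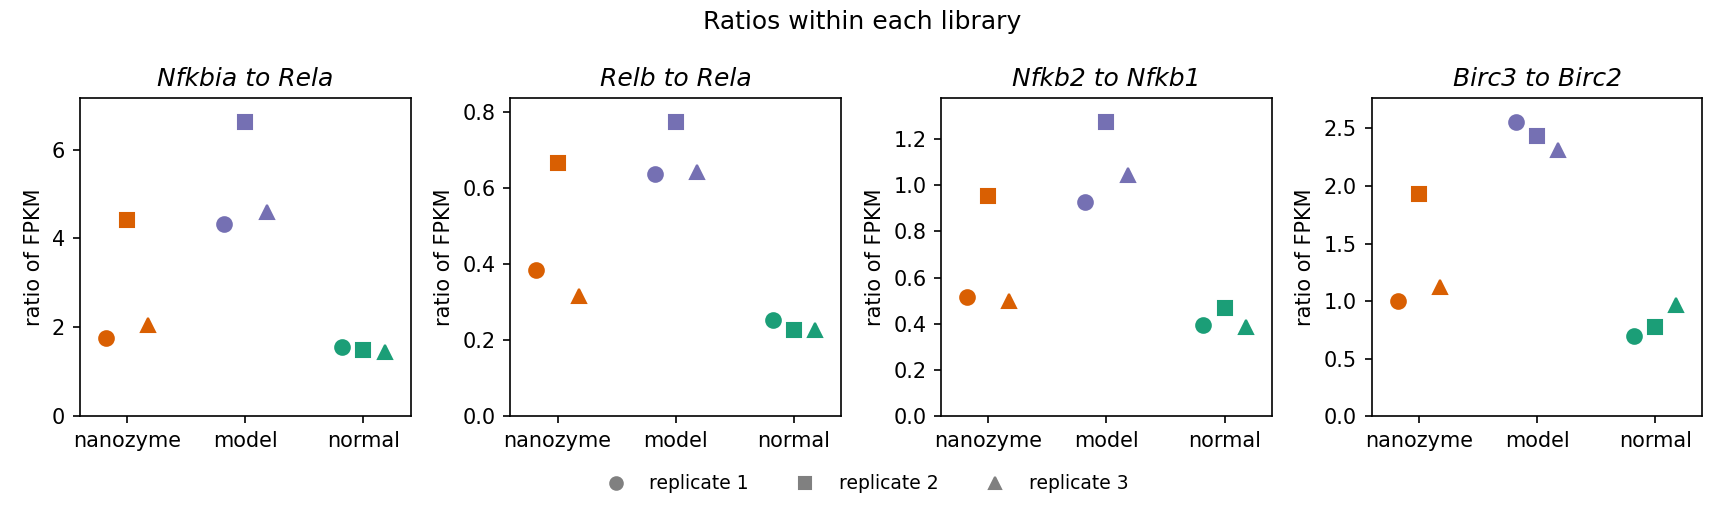
FPKM ratios within each library (vertical axes, starting at 0) for Nfkbia to Rela, Relb to Rela, Nfkb2 to Nfkb1 and Birc3 to Birc2 in nanozyme, model and normal lung, with 1 point per library and the shape giving the replicate. Nfkbia to Rela was 4.43 in nanozyme replicate 2, among model libraries at 4.32 to 6.63, and 1.77 and 2.04 in nanozyme replicates 1 and 3, near the normal libraries at 1.45 to 1.56.

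Among the IkB family, Nfkbia encodes IkB-alpha, the inhibitor that is destroyed on activation and quickly made again as a target of the factor. It had 234, 312 and 244 FPKM in model lung, against 58.0, 61.5 and 57.8 FPKM in normal lung. It was the most abundant of the 10 messages in all 3 groups, and rose by 2.13 ± 0.41 (adjusted p = 0.00493). Nfkbiz encodes IkB-zeta and Bcl3 a related protein, both of which act in the nucleus on NF-kB bound to DNA and can raise as well as lower transcription, so neither is an inhibitor in the plain sense. Nfkbiz had 43.9, 41.6 and 52.3 FPKM in model lung, against 12.4, 12.6 and 12.5 FPKM in normal lung, a change of 1.79 ± 0.37 (adjusted p = 0.00638). Bcl3 had 59.7, 47.9 and 64.1 FPKM in model lung, against 15.7, 15.5 and 16.8 FPKM in normal lung, and rose by 1.77 ± 0.43 (adjusted p = 0.0133). Both were clear of the normal range in each model mouse.

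The remaining regulators act on signalling complexes and on messenger RNA. Tnfaip3 encodes a ubiquitin-editing enzyme that dismantles receptor signalling complexes. It had 54.4, 39.8 and 82.8 FPKM in model lung, against 5.66, 5.50 and 5.11 FPKM in normal lung (adjusted p = 0.00471). The model mice were spread more widely for Tnfaip3 than for any other of the 10 genes, with a coefficient of variation of 37.1%, and model replicate 2, lowest for Tnfaip3, was highest for Nfkbia. Zc3h12a encodes Regnase-1, a ribonuclease that cuts inflammatory messenger RNAs. It had 34.1, 34.7 and 34.6 FPKM in model lung, against 2.64, 3.20 and 2.95 FPKM in normal lung (adjusted p = 0.00245). The model libraries were nearly identical, with a coefficient of variation of 1.06%. Birc3 encodes a ubiquitin ligase of tumour necrosis factor receptor complexes that also limits the kinase of the alternative pathway. It had 49.1, 55.8 and 54.9 FPKM in model lung, against 13.04, 14.03 and 15.78 FPKM in normal lung, a change of 1.83 ± 0.30 (adjusted p = 0.00267). Its paralog Birc2 averaged 22.0 ± 2.44 FPKM in model and 17.7 ± 1.17 FPKM in normal lung (0.29 ± 0.14, adjusted p = 0.117), and the ratio of Birc3 to Birc2 was 2.31 to 2.56 in model lung, against 0.700 to 0.963 in normal lung.

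**Figure D2:**
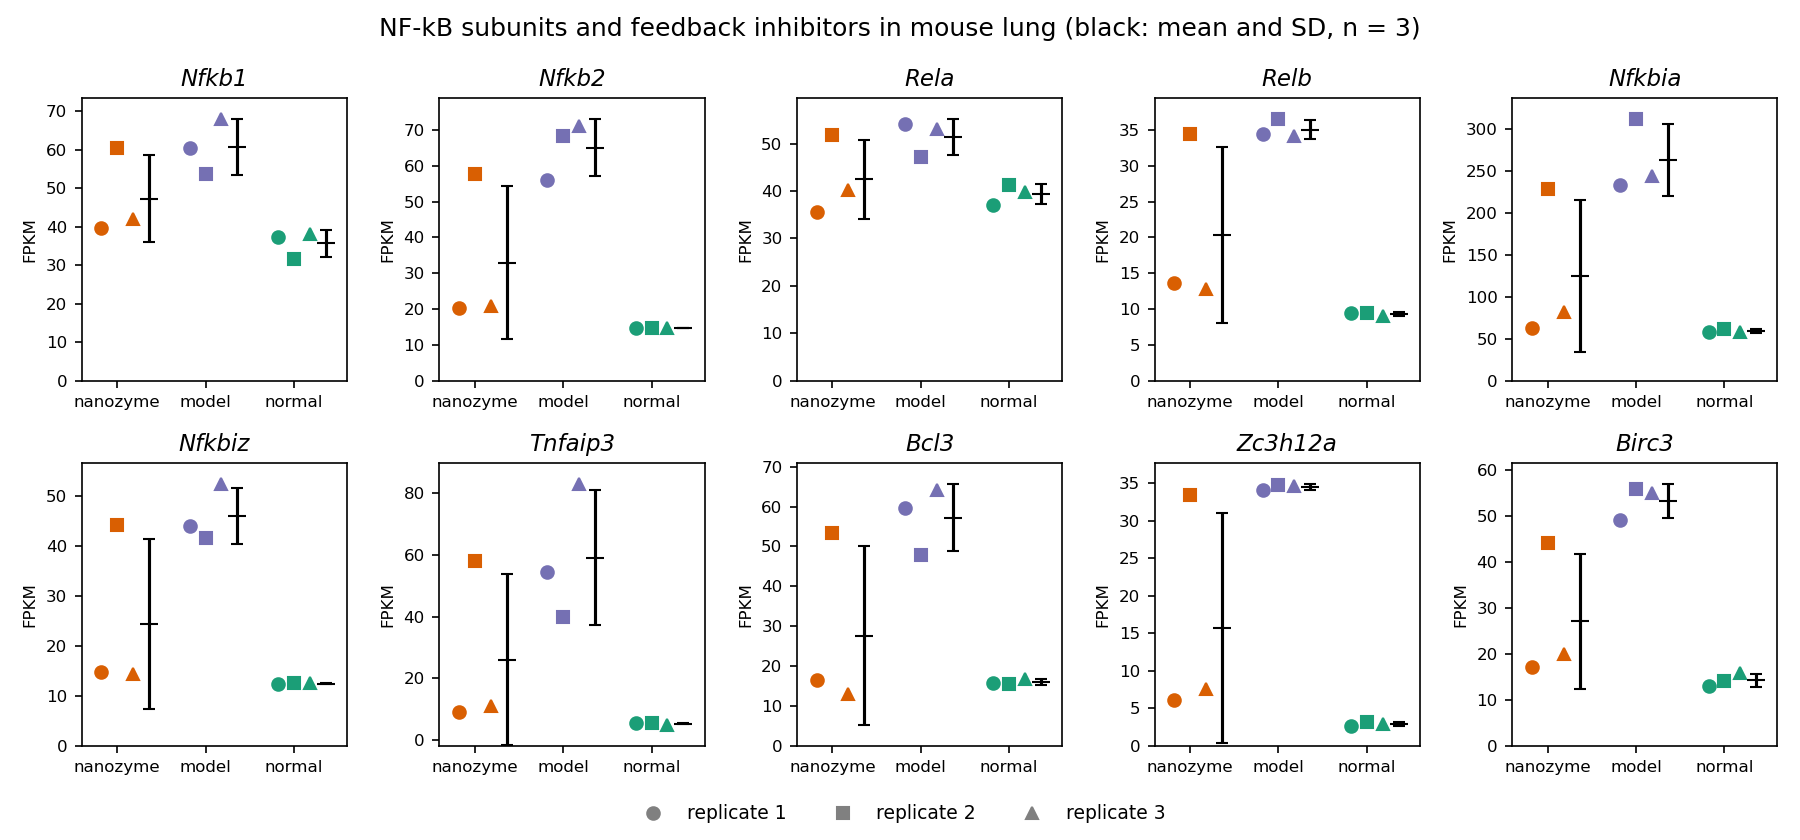
FPKM of the 10 genes (vertical axes, linear) in the 3 libraries of nanozyme, model and normal lung, with 1 point per mouse, the shape giving the replicate, and mean ± SD in black. Nanozyme replicate 2 sits near the model mice in each panel, for example at 229 FPKM for Nfkbia, while nanozyme replicates 1 and 3, at 63.0 and 82.1 FPKM, sit near the normal mice.

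The order of the messages differed between groups. In nanozyme lung Nfkbia was first, at 125 ± 90.8 FPKM, and every later message overlapped with the next one, from Nfkb1 at 47.3 ± 11.4 FPKM to Zc3h12a at 15.7 ± 15.3 FPKM. In model lung Nfkbia, at 264 ± 42.7 FPKM, was followed by Nfkb2, Nfkb1, Tnfaip3, Bcl3, Birc3, Rela and Nfkbiz, whose means from 65.1 to 45.9 FPKM each overlapped with the next. Relb and Zc3h12a closed the order at 35.0 ± 1.30 and 34.5 ± 0.366 FPKM, apart from Nfkbiz. In normal lung it ran from Nfkbia at 59.1 ± 2.10 FPKM through Rela at 39.4 ± 2.11 and Nfkb1 at 35.6 ± 3.47 FPKM down to Tnfaip3 at 5.42 ± 0.281 and Zc3h12a at 2.93 ± 0.282 FPKM, and Rela and Nfkb1 overlapped. By mean FPKM, Tnfaip3 held the fourth place in model lung and the ninth in normal lung. Rela held the seventh in model lung and the second in normal lung. In model lung both genes lay among messages that overlapped, so their places there are not settled by 3 mice.

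Some leukocyte markers moved with these genes and others did not pass. The background in model vs normal was again 17.4% of all tested genes higher and 22.7% lower. The leukocyte gene Ptprc had 80.3 to 106 FPKM in model and 18.1 to 22.7 FPKM in normal lung. All 8 neutrophil markers were higher in model lung, with a summed level of 2439 to 3155 FPKM in model and 36.8 to 46.2 FPKM in normal lung. All 8 monocyte and macrophage markers were also higher, with a sum of 7444 to 10400 FPKM in model and 3774 to 4649 FPKM in normal lung. Lyz2 made up most of that sum, at 6838.7 to 9547.5 FPKM in model and 3695 to 4556.9 FPKM in normal lung. Its change of 0.92 was the smallest of the 8, whose median was 2.88, so the sum understates the rise of the others. Ly6g was the one neutrophil marker at 0 in any library. Of 8 alveolar macrophage markers 3 were higher and of 7 T cell markers 3, while 0 of 7 B cell markers passed in either direction. Of 6 tested dendritic cell markers 0 were higher and 1 was lower, Cd209a. Several markers of other cells were lower in the model. All 3 club cell markers were lower, with a sum of 5602 to 15340 FPKM in model and 63720 to 75400 FPKM in normal lung, as were 3 of 6 alveolar type 2 and 3 of 4 alveolar type 1 markers. The 3 red blood cell markers summed to 104 to 182 FPKM in model and 2041 to 2471 FPKM in normal lung, and the 4 cardiac muscle markers to 5.13 to 37.0 FPKM in model and 90.7 to 446 FPKM in normal lung, with all 7 lower by limma. In bulk tissue more cells of a type and more RNA per cell cannot be told apart, and the part of these cells in the rise of the NF-kB genes was not tested.

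The wider pathway was read from lists chosen with earlier results of these data known. The lists share genes, so their counts are not separate readouts. Il6, Il12b, Lcn2 and Csf2, the genes listed as needing IkB-zeta, are all canonical targets too. Il6, Il12b and Rel are also listed as Regnase-1 messages, and Cd40 is both a canonical and an alternative-pathway gene. All 4 other genes of the Rel and IkB families rose in model lung. Nfkbie, which encodes IkB-epsilon, had the largest of these changes (2.94 ± 0.42, adjusted p = 0.00165), followed by Nfkbid, encoding a nuclear IkB protein (2.50 ± 0.38, adjusted p = 0.00222). Nfkbib, encoding IkB-beta, rose by 1.63 ± 0.30 (adjusted p = 0.00425) and Rel, the subunit typical of lymphoid and myeloid cells, by 1.17 ± 0.22 (adjusted p = 0.00479). Of 31 kinases and adaptors that activate the factor, 18 rose and 1 fell, with a median change of 0.48. Over all tested genes 17.4% rose and 22.7% fell. The IKK-related kinase gene Ikbke (3.46 ± 0.53, adjusted p = 0.00219) and the paracaspase gene Malt1 (2.76 ± 0.40, adjusted p = 0.00184) were among the higher ones, as was Card9, an adaptor below fungal receptors (1.44 ± 0.13, adjusted p = 0.000275). Both catalytic subunit genes of the canonical kinase complex did not pass, as Ikbkb changed by 0.09 ± 0.12 (adjusted p = 0.573) and Chuk by -0.33 ± 0.12 (adjusted p = 0.0547). The 1 lower gene was the kinase adaptor Tab1 (-0.34 ± 0.09, adjusted p = 0.0211), a call that ended with median-of-ratios scaling, with equal column sums, and without normal replicate 1 or 3. The most abundant genes of the list that did not pass were the kinase adaptor gene Tab2 (0.07 ± 0.09, adjusted p = 0.548) and Traf1, which encodes a receptor adaptor (0.51 ± 0.31, adjusted p = 0.221).

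Other restraints of the pathway moved in both directions. Of 21 listed, 9 rose and 4 fell, with a median change of 0.38, where 17.4% of all tested genes were higher and 22.7% lower. Irak3, a kinase-dead brake on Toll-like receptor signalling, rose by 2.95 ± 0.43 (adjusted p = 0.00187). Tnip1 and Tnip3, which encode partners of the Tnfaip3 protein, rose by 2.66 ± 0.37 and 2.68 ± 0.35 (adjusted p = 0.00150 and 0.00116). Zc3h12d, a relative of Zc3h12a, rose by 1.51 ± 0.15 (adjusted p = 0.000368). Dusp1, a phosphatase that ends stress kinase signalling, fell by 1.13 ± 0.32 (adjusted p = 0.0219), and the messenger RNA decay factor gene Zfp36 did not pass (0.38 ± 0.33, adjusted p = 0.370). The lower count of 4 was 2 with no filter, 1 with median-of-ratios scaling, equal column sums or without model replicate 2 or 3, and 0 without any 1 of the normal libraries. The higher count of 9 was 5 when genes needed a mean of at least 5 FPKM.

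Known targets of the factor moved widely. Of 32 canonical targets 30 rose and 0 fell, with a median change of 3.91. For each list here the background was 17.4% of tested genes higher and 22.7% lower. The acute-phase gene Saa3 had 6384, 13203 and 7175 FPKM in model lung, against 5.61, 4.43 and 4.86 FPKM in normal lung (10.47 ± 0.77, adjusted p = 0.000152), and the protease gene Mmp9 rose by 4.42 ± 0.25 (adjusted p = 7.8e-05). The monocyte chemokine gene Ccl2 rose by 5.04 ± 0.65 (adjusted p = 0.00111). The cell survival gene Bcl2l1 (0.36 ± 0.16, adjusted p = 0.105) and Il12b (1.09 ± 0.53, adjusted p = 0.127) did not pass. Of 11 tested ligands, receptors and targets of the alternative pathway 7 rose and 0 fell, with a median of 0.94, and the count was 4 without model replicate 2 or 3 or normal replicate 1. The B cell chemokine Cxcl13, a target of the Relb and Nfkb2 dimer, rose by 5.24 ± 0.49 (adjusted p = 0.000328) and the lymphotoxin gene Ltb by 1.15 ± 0.16 (adjusted p = 0.00157), whereas Ccl21a (-0.42 ± 0.16, adjusted p = 0.0645) and the receptor gene Ltbr (0.26 ± 0.11, adjusted p = 0.0916) did not pass. Tnfsf11 and Madcam1 were too low to be tested. Of 7 messages that Regnase-1 is known to cut, 5 rose and 0 fell, with a median of 0.86, and the count was 2 without normal replicate 1 or 3, 3 without normal replicate 2 or model replicate 2 or 3, and 1 when genes needed a mean of at least 5 FPKM. Il6 rose by 2.93 ± 0.65 (adjusted p = 0.00915) and the transferrin receptor gene Tfrc was at 0.01 ± 0.13 (adjusted p = 0.979). Of 4 genes known to need IkB-zeta 3 rose, among them Lcn2, which encodes an iron-trapping protein (5.87 ± 0.80, adjusted p = 0.00141), and Csf2, encoding a myeloid growth factor (1.79 ± 0.29, adjusted p = 0.00254).

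**Figure D3:**
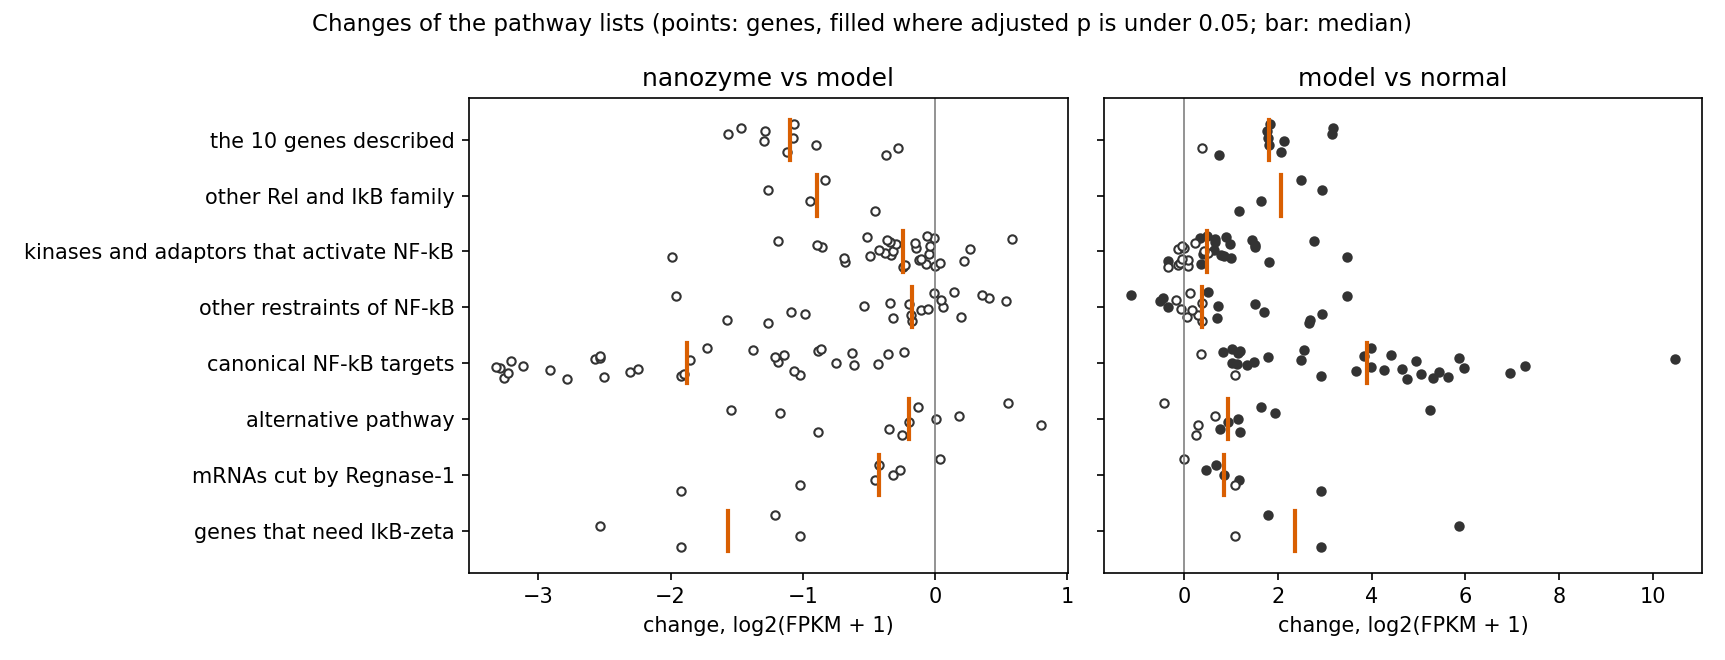
Change on the log2(FPKM + 1) scale (horizontal axes) of the 10 genes described and of the 7 pathway lists (rows), with 1 point per tested gene, filled where adjusted p was under 0.05, for nanozyme vs model and for model vs normal. The median of the canonical targets was -1.87 in nanozyme vs model, where 0 points are filled, and 3.91 in model vs normal.

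The second comparison set nanozyme lung against model lung. All 10 genes averaged lower in nanozyme lung, with fold changes of the mean FPKM from 0.443 for Tnfaip3 to 0.826 for Rela, but the 3 nanozyme mice did not stand together. Mice 1 and 3 lay near normal lung for most of the genes, and mouse 2 lay near the model for each. With all 3 mice in the fit, 0 of the 10 genes were higher or lower by limma, where the background was 0% of tested genes in either direction. At an unadjusted p under 0.05, 8 of the 10 were lower and 0 higher, against 1262 lower and 1949 higher among all 14540 tested genes. Without nanozyme replicate 2 all 10 were lower, where the background was 9.64% of tested genes lower and 12.5% higher.

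The nanozyme mice are best read one by one. Nfkbia had 63.0, 229 and 82.1 FPKM in nanozyme replicates 1 to 3, against 264 ± 42.7 FPKM in model lung. The change over all mice was -1.29 ± 0.41 (95% interval -2.22 to -0.37, adjusted p = 0.182). Without nanozyme replicate 2 it was -1.85 ± 0.16 (adjusted p = 0.000462), with adjusted p-values from 0.000462 to 0.528 over 20 settings. All 3 nanozyme libraries were below the lowest model library for Nfkbia, and the same held for Zc3h12a and Birc3, at 3 of 10 genes against 5.83% of tested genes, although replicate 2 was below by a narrow margin.

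The 2 brakes with the largest rise in the model showed the widest split. Zc3h12a had 6.12, 33.4 and 7.55 FPKM in nanozyme lung, against 34.5 ± 0.366 FPKM in model lung (-1.47 ± 0.50, adjusted p = 0.182). Without replicate 2 it was lower by -2.18 ± 0.12 (adjusted p = 0.000227, range 0.000227 to 0.528 over 20 settings). Tnfaip3 had 9.23, 58.0 and 11.2 FPKM in nanozyme lung, against 59.0 ± 21.9 FPKM in model lung (-1.56 ± 0.60, adjusted p = 0.193), and -2.36 ± 0.27 without replicate 2 (adjusted p = 0.00109, range 0.00109 to 0.534 over 20 settings). In both genes replicates 1 and 3 were under all model libraries, and replicate 2 was at the model level.

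For the nuclear IkB proteins and Birc3 the split was the same. Bcl3 had 16.6, 53.4 and 12.9 FPKM in nanozyme lung, against 57.2 ± 8.38 FPKM in model lung (-1.28 ± 0.43, adjusted p = 0.182), and replicate 3 was below every normal library. Nfkbiz had 14.8, 44.1 and 14.4 FPKM in nanozyme lung, against 45.9 ± 5.65 FPKM in model lung (-1.07 ± 0.37, adjusted p = 0.182). Birc3 had 17.1, 44.0 and 20.1 FPKM in nanozyme lung, against 53.3 ± 3.65 FPKM in model lung (-1.07 ± 0.30, adjusted p = 0.181). Without replicate 2 these changes were -1.88 ± 0.15 for Bcl3, -1.58 ± 0.11 for Nfkbiz and -1.47 ± 0.12 for Birc3 (adjusted p = 0.000386, 0.000324 and 0.000394, each up to 0.528 over 20 settings). Replicates 1 and 3 were again far below the model libraries for all of these.

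The subunits showed the same split between mice. Nfkb2 had 20.4, 57.6 and 21.0 FPKM in nanozyme lung, against 65.1 ± 7.98 FPKM in model lung (-1.12 ± 0.34, adjusted p = 0.182). Relb had 13.7, 34.5 and 12.7 FPKM in nanozyme lung, against 35.0 ± 1.30 FPKM in model lung (-0.90 ± 0.31, adjusted p = 0.182). For Nfkb1 and Rela the intervals of the change included 0. Nfkb1 had 39.7, 60.4 and 41.9 FPKM in nanozyme lung, against 60.6 ± 7.22 FPKM in model lung (-0.37 ± 0.17, 95% interval -0.76 to 0.02, adjusted p = 0.245). Rela had 35.6, 51.7 and 40.2 FPKM in nanozyme lung, against 51.4 ± 3.78 FPKM in model lung (-0.28 ± 0.14, 95% interval -0.60 to 0.04, adjusted p = 0.263). Without replicate 2 the changes of these subunits ran from -1.60 for Nfkb2 to -0.43 for Rela, all past the threshold.

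**Figure D4:**
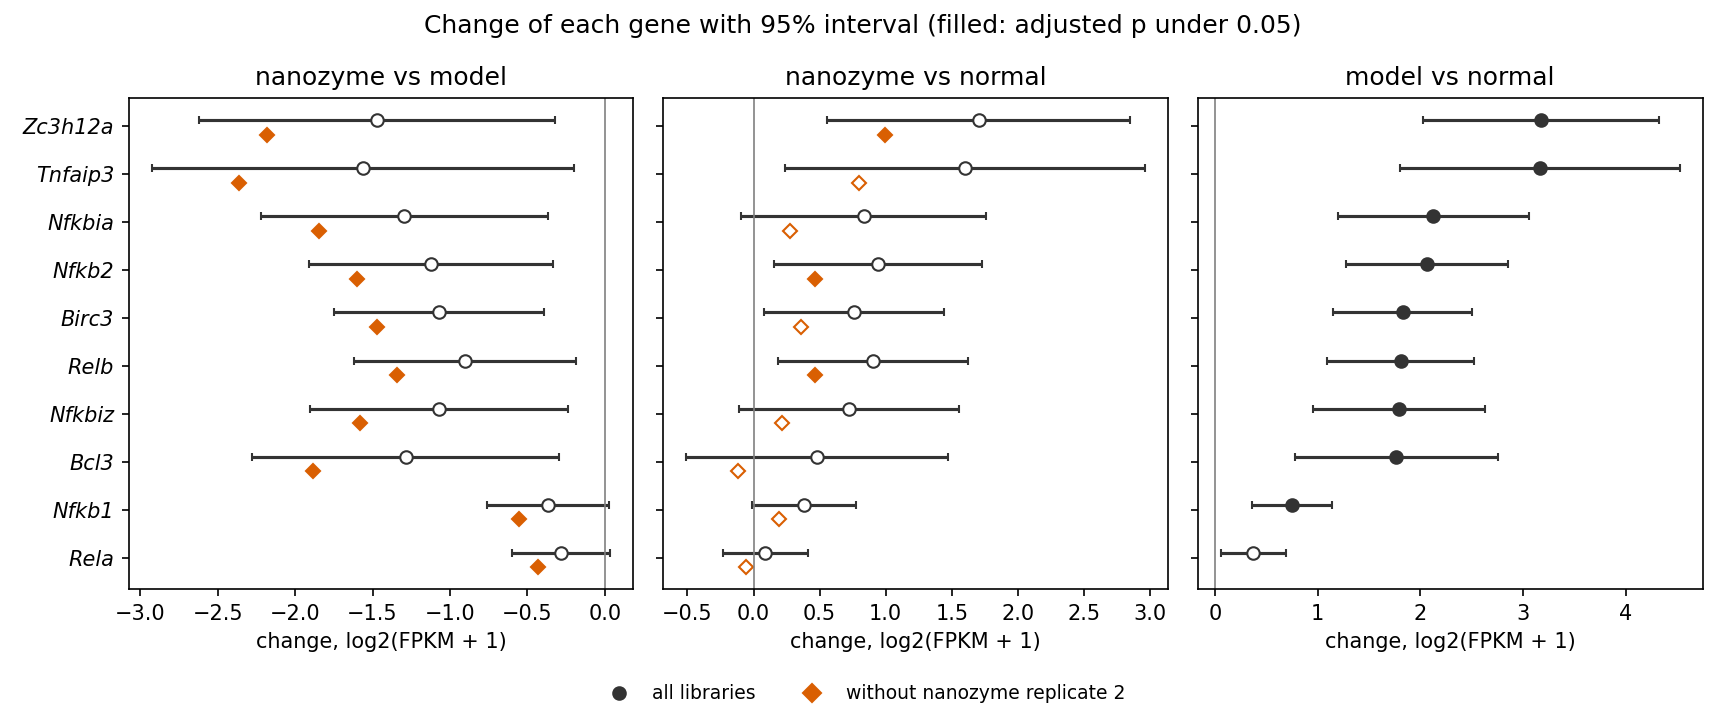
Change of each of the 10 genes on the log2(FPKM + 1) scale (horizontal axes) in the 3 comparisons, with 95% intervals from limma, filled where adjusted p was under 0.05, and diamonds for the fit without nanozyme replicate 2. In nanozyme vs model 0 circles but all 10 diamonds are filled, and in model vs normal Rela is the one open circle.

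How far each nanozyme mouse stood from normal lung was expressed as a percentage of the log2 distance between the normal mean (0%) and the model mean (100%). For the 8 genes of the set that were called and changed at least 2-fold in the model, the median was 17.4% in replicate 1, 96.1% in replicate 2 and 23.3% in replicate 3. Over all 2390 genes called at that size the medians were 47.9%, 88.3% and 45.3%. The lower and upper quartiles of these genes were 20.5% and 78.4% in replicate 1, 75.8% and 98.0% in replicate 2, and 22.9% and 70.1% in replicate 3. Within the 8, replicate 1 ran from 2.80% for Bcl3 to 28.4% for Relb, and replicate 3 from -16.2% for Bcl3 to 35.4% for Zc3h12a. The 29 canonical targets called at that size had medians of 7.0%, 95.1% and 27.7%. The other Rel and IkB genes, restraints, alternative-pathway genes, and kinases and adaptors were nearer than the 8 genes to the all-gene medians in replicates 1 and 3. The 4 other Rel and IkB genes had 36.5%, 98.9% and 41.7%, and 7 other restraints 33.4%, 86.4% and 37.3%. For 5 alternative-pathway genes the medians were 39.9%, 90.6% and 46.7%, and for 6 kinases and adaptors 28.7%, 97.2% and 30.6%. The 2 Regnase-1 messages, Rel and Il6, had 18.9%, 98.5% and 25.4%, close to the 8 genes. Rel also counts among the other Rel and IkB genes, and Il6 among the canonical targets. The 3 genes that need IkB-zeta, Il6, Lcn2 and Csf2, had 2.4%, 94.7% and 25.7%, and all are canonical targets too. These percentages are descriptions with no test, and they share the model and normal mice with the comparisons above.

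Leukocyte markers in the nanozyme libraries are set beside these values, without a test of the difference between the lists. Ptprc had 63.5 and 67.6 FPKM in those libraries and 86.8 FPKM in nanozyme replicate 2. The neutrophil markers summed to 1104, 3279 and 1335 FPKM in nanozyme replicates 1 to 3, and the monocyte and macrophage markers to 6165, 10330 and 6777 FPKM. Lyz2 alone had 5855, 9726 and 6472 FPKM of the monocyte and macrophage sums. On the percentage scale the 8 neutrophil markers had medians of 64.0%, 100.7% and 76.4%, and 7 monocyte and macrophage markers medians of 58.9%, 91.2% and 50.7%. Nearness to normal lung in replicates 1 and 3 was not particular to the NF-kB genes. Alveolar type 2 markers had 8.0%, 59.7% and -4.0%, alveolar type 1 markers 3.7%, 80.0% and 4.0%, and fibroblast markers 6.5%, 72.7% and -10.4%. Club cell markers, at 36.6%, 68.9% and 51.7%, and ciliated cell markers, at 83.4%, 52.0% and 68.1%, were farther from it. B cell markers had a sum of 244, 70.7 and 205 FPKM in nanozyme replicates 1 to 3, from 51.8 to 70.4 FPKM in model and from 53.9 to 73.8 FPKM in normal lung. By limma 0 of the 7 B cell markers passed in nanozyme vs model, and 2 of 7, Cd79a and Blk, were higher in nanozyme vs normal. Of all tested genes 0% passed in the first and 8.39% were higher in the second. The part of these cells in the NF-kB values was not tested.

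The pathway lists were read in the same way in this comparison. With all mice 0 of the 31 kinases and adaptors, 0 of the 21 other restraints, 0 of the 32 canonical targets and 0 of the 11 alternative-pathway genes passed in either direction by limma. At an unadjusted p under 0.05, 9, 5, 27 and 4 of them were lower and 2, 2, 0 and 1 higher. Of all 14540 tested genes, 1262 were lower and 1949 higher at that threshold. Without nanozyme replicate 2 the lower counts were 13, 6, 30 and 5, and the higher counts 1, 2, 0 and 2. In that fit the background was 9.64% of tested genes lower and 12.5% higher. All 4 other Rel and IkB genes were lower without that library, and 0 with it. Nfkbie had 7.86, 29.5 and 8.32 FPKM in nanozyme replicates 1 to 3, against 31.8 ± 4.08 FPKM in model lung.

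The third comparison asked what remained different between nanozyme and normal lung. All 10 genes averaged higher in nanozyme lung, but 0 passed in either direction by limma, where the background was 8.39% of tested genes higher and 5.5% lower. At an unadjusted p under 0.05, 5 of the 10 were higher: Nfkb2, Relb, Tnfaip3, Zc3h12a and Birc3. Of all 14540 tested genes, 2344 were higher and 2100 lower at that threshold. At 8 of the 10 genes all nanozyme libraries were above all normal libraries, which held for 22.1% of tested genes, and Rela and Bcl3 overlapped. The largest change was that of Zc3h12a at 1.70 ± 0.50 (95% interval 0.56 to 2.85, adjusted p = 0.0565).

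With nanozyme replicate 1 left out, 1 of the 10 genes passed as higher than in normal lung, where the background was 7.07% of tested genes higher and 2.99% lower. That gene was Zc3h12a (2.13 ± 0.48, adjusted p = 0.0352). Without nanozyme replicate 2, 3 genes passed as higher than in normal lung, where the background was 9.31% of tested genes higher and 4.26% lower. Zc3h12a was at 0.99 ± 0.12 (adjusted p = 0.00208, range 0.00208 to 0.164 over 20 settings), with 6.12 and 7.55 FPKM in nanozyme replicates 1 and 3, against 2.93 ± 0.282 FPKM in normal lung. Nfkb2 was at 0.47 ± 0.12 (adjusted p = 0.0375, range 0.0147 to 0.235) and Relb at 0.47 ± 0.09 (adjusted p = 0.0155, range 0.0110 to 0.214). In the same fit Bcl3 (-0.12 ± 0.15, adjusted p = 0.676) and Rela (-0.06 ± 0.11, adjusted p = 0.783) were close to normal lung, and both were positive with all mice, at 0.48 ± 0.43 and 0.09 ± 0.14. Of the wider pathway with all mice, 2 of 4 other Rel and IkB genes, 7 of 31 kinases and adaptors, 4 of 21 other restraints, 10 of 32 canonical targets and 2 of 11 alternative-pathway genes were higher, with 0 of 7 Regnase-1 messages and 1 of 4 genes that need IkB-zeta. The 1 lower gene was the kinase gene Chuk (-0.58 ± 0.12, adjusted p = 0.0174). With all mice the background was 8.39% of tested genes higher and 5.5% lower. Without nanozyme replicate 2 the higher counts were 2, 6, 4, 12, 4, 0 and 1 in the same order of lists. The first 4 of these counts were 0, 3, 1 and 3 without normal replicate 1, 0, 3, 1 and 4 without normal replicate 2, and 0, 2, 1 and 3 without normal replicate 3. Without model replicate 1 the restraints were 2 and the canonical targets 6, without model replicate 3 the canonical targets were 6, and without nanozyme replicate 1 the alternative-pathway count was 4. The Chuk call ended without normal replicate 1 or 3, and the 1 IkB-zeta call without any 1 of the normal libraries, and without nanozyme replicate 3 the Regnase-1 count was 1.

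Across the 9 libraries the 10 genes fell into patterns of unequal reach. Likeness was measured as the root mean square difference of log2(FPKM + 1) after centring each gene on its mean. Nfkb2, Relb, Nfkbiz and Birc3 were close to each other, at 0.140 to 0.151 between any pair of them. Tnfaip3 and Zc3h12a were closest to each other within the set, at 0.270, and Rela and Nfkb1 likewise, at 0.196. Among 13130 other named genes tested, the one most like Nfkb2 was Tapbpl (0.0579), most like Relb was Plbd1 (0.0679) and most like Nfkbia was Tapbp (0.0833). Litaf was most like Nfkbiz (0.0744), Tcirg1 most like Birc3 (0.0885), Sh2b2 most like Zc3h12a (0.105) and Nlrc5 most like Tnfaip3 (0.193). Mapk6 was most like Nfkb1 (0.0641) and Hnrnph2 most like Rela (0.0636). These are descriptions over 9 libraries that share 3 group means.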

How the data were processed

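RNA from 9 mouse lungs was extracted with TRIzol, selected with oligo(dT) beads and made into libraries that mark the second strand, per the labels' protocols. Reads were aligned with HISAT2 to GRCm38, per the submitters' processing notes. The annotation, counting tool, strand setting and versions are not given in the sources used here. The authors deposited FPKM values, 1 column per library, with column sums from 443746 to 519772. Low genes gave no ladder of whole-read values (8.01% of ratios between 2 libraries in the fullest bin), so counts and depth are unknown.

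Here, genes with FPKM of at least 1 in at least 3 of 9 libraries were tested (14540). limma 3.58.1 (R 4.3.3) was fitted to log2(FPKM + 1) with 1 coefficient per group, all 9 libraries and an intensity trend, with two-sided tests at an adjusted p of 0.05. The pseudocount understates changes of low genes. The fit was tested on simulated data. The 10 genes and all lists were chosen with earlier results of these data known. Named list genes were those with the smallest adjusted p in model vs normal and the most abundant ones that did not pass, and the text gives a selection. Ikbkb, Chuk, Tab1, Dusp1 and Birc2 fall outside that rule and were chosen after their values were seen. The gene most like Bcl3 is not reported here. Sequences are from RefSeq. The labels give 3 mice per group and no batch. The library names give the nanozyme libraries separate numbers, and number the model and then the normal libraries in sequence. Alternatives were other pseudocounts, filters, scalings, fits, sample weights, a replicate block and leaving out each library. Python 3.11.15 and matplotlib 3.10.9 were used.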

Additional observations from a re-analysis of the deposited data

How the results depend on the processing

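In model vs normal the 9 higher calls kept their direction and side of the threshold in all 20 alternatives, with 9 or 10 of the 10 genes called in each. Rela passed as higher with median-of-ratios scaling, only the 2 groups compared, sample weights and without nanozyme replicate 1 or 2. In nanozyme vs model, sample weights called all 10 genes lower, and leaving out 1 library gave 0 to 10 lower calls, with 10 only without nanozyme replicate 2. Sample weights count a library less the more it departs from its group, so these 2 settings are not separate support. The weight that nanozyme replicate 2 received is not given here. In nanozyme vs normal, the higher count was 1 with a pseudocount of 0.1, 1 with equal column sums, 5 with sample weights and 0 to 3 on leaving out 1 library. There, Rela turned to -0.0011 with quantile normalization, to -0.0038 without the 100 most abundant genes in the scaling and to -0.0076 with sample weights, and ranged from -0.057 (without nanozyme replicate 2) to 0.206 on leaving out 1 library. Bcl3 turned to -0.13 with sample weights and ranged from -0.119 (without nanozyme replicate 2) to 0.864. The cause was not tested for any of these.

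Of all tested genes, 2152 were lower in model vs normal with a mean FPKM of at least 5, and 807 were higher and 478 lower in nanozyme vs normal, where fewer genes were tested. No filter gave 1 higher and 3 lower in nanozyme vs model, and quantile normalization 1306 lower in nanozyme vs normal. Sample weights gave 1662 higher and 1372 lower in nanozyme vs model, and 3164 and 2581 in nanozyme vs normal. Leaving out 1 library gave 1916 to 2754 higher and 1920 to 3836 lower in model vs normal, 0 to 1814 higher and 0 to 1402 lower in nanozyme vs model, and 600 to 1353 higher and 148 to 917 lower in nanozyme vs normal. The all-gene median of model vs normal shifted by 0.11 under median-of-ratios scaling and by -0.11 when the 100 most abundant genes were kept out of the scaling. Samples share replicate numbers but nothing in the labels pairs them, and correlations of same-numbered deviations ran from -0.331 to 0.227. With a replicate block 9 of the 10 genes were higher in model vs normal, as without it, 0 passed in both nanozyme comparisons, and 2402 and 3226 genes were higher and lower in model vs normal. Unknown depth limits low genes most.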
